A study of Mus musculus with 4 samples.

Results

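Hopx, the gene for the homeodomain-only protein, was 1 of 49671 genes counted in single cells of the mouse olfactory epithelium. It was chosen by its UMI counts in these same libraries, which peaked at postnatal day 3 (P3) and day 7 (P7) in progenitors and neurons, so its levels by age and by cell class are given as a description, with no test. Cells came from CD-1 mice, an outbred strain, in 4 libraries, taken at P0, P3, P7 and P21, 1 per age, and the labels name no treatment or mutation. The study concerns neurons that help to form the olfactory map, the ordered wiring of olfactory sensory neurons (OSNs) to the olfactory bulb, in an early critical period. Papain-freed cells entered a droplet system as sorted samples, and the labels name neither the sort gate nor the number, the sex or the preparation days of the mice. Age and library therefore cannot be told apart.

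HOPX is a small atypical homeodomain protein. In the mouse heart it does not bind DNA itself but binds serum response factor, limits the activation of that factor's targets, and recruits the histone deacetylase HDAC2. Elsewhere in mice Hopx marks reserve stem cells of the intestine, quiescent stem cells of the hippocampus, hair follicle cells and alveolar type I cells. In the olfactory epithelium, globose basal cells pass through immediate neuronal precursors and immature OSNs to mature OSNs, and horizontal basal cells form the quiescent reserve.

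Hopx lies on the minus strand of chromosome 5, from 77086988 to 77115121 in the mm10 annotation. RefSeq holds 2 promoters for it on GRCm38.p6, which is the same build. They are shown because they differ in the letters that HOPX's known partner and the neurogenic factors of this lineage read. Each runs from 250 bases before to 50 bases after a transcription start, 5′ to 3′ on the gene's strand, with motif matches in capitals.
Hopx distal promoter (chr5:77115074-77115373): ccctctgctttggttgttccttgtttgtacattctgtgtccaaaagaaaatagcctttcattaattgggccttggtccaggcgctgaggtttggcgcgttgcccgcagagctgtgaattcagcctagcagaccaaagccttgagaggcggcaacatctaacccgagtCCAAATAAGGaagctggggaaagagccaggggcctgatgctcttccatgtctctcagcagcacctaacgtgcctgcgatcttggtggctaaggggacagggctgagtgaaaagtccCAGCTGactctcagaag
Hopx proximal promoter (chr5:77095218-77095517): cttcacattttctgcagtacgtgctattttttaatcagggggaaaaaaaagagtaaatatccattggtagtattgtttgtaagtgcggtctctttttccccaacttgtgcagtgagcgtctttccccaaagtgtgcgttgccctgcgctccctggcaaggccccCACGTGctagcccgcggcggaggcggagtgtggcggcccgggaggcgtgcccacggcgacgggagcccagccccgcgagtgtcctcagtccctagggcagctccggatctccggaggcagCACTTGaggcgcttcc
The capitals in the distal promoter are CCAAATAAGG, a CArG box of the kind serum response factor binds, and CAGCTG, an E-box (CANNTG). The capitals in the proximal promoter are the E-boxes CACGTG and CACTTG. Both strands were searched. A CArG box occurred in 1.63% and an E-box in 72.3% of 32851 mouse promoters of the same length. Neither promoter held the palindromic motif of Ebf factors (0.904% of all promoters) or TAATTA, a homeodomain core (5.29%). The distal promoter held 8 CpG dinucleotides and 53% G and C, and the proximal one 21 CpG and 59%, against a median of 7 CpG over all promoters. These matches are descriptions of sequence, and the counts from 3′ ends do not show which promoter was used.

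After filtering, 9051 cells were used, between 1412 and 3187 per library, with 6839278 to 17420935 unique molecular identifiers (UMIs, 1 per captured transcript) per library. Median depth was 3216 UMIs per cell at P0 and 4407 to 4962 at the other ages. Between 1 and 9 cell barcodes were shared by 2 libraries, except that P0 and P3 shared 68. Leaving out all shared barcodes gave Hopx levels of 83.7 CPM at P3 and 124 CPM at P7 in the precursor-like class described below, against 83.7 and 125 CPM with them. Levels are given as UMIs of a gene per 1000000 UMIs of its group (CPM), with exact 95% Poisson intervals that cover counting error only.

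Over whole libraries the Hopx level was 12 CPM in P0 cells (9.85 to 14.5), 42.3 CPM in P3 cells (39.3 to 45.5), 73.1 CPM in P7 cells (67.5 to 79.1) and 13.3 CPM in P21 cells (10.7 to 16.3). These levels rested on 109, 737, 627 and 91 Hopx UMIs. A Hopx UMI was found in 101 of 2673 P0 cells, 476 of 3187 P3 cells, 378 of 1779 P7 cells and 80 of 1412 P21 cells. The amount per positive cell moved with the share of cells. At P0 no cell held more than 2 Hopx UMIs, whereas 22 cells at P3 and 26 at P7 held 4 or more, up to 10 in 1 cell at P3.

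Most Hopx transcripts lay in the neuronal lineage. The 11 clusters from dividing cells to Omp-expressing OSNs held 6734 cells and 95.9% of Hopx UMIs, between 95% and 97.8% in each library. Hopx was at 44.5 CPM in the lineage (42.3 to 46.8) and 7.80 CPM in all other cells (6.01 to 9.97). Within the lineage the 4 ages in order had 13.9, 53.0, 89.3 and 14.6 CPM. The ages differed in makeup as well as in level, so each stage is described below.

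The dividing stages carried little Hopx. Cluster 13, led by Ccnd1 and replication genes such as Mcm3 and Mcm6, met no single name by the marker rule. It had 0 Hopx UMIs in 158 P0 cells, 10.8 CPM in P3 cells (7.50 to 15.1), 7.22 CPM in P7 cells (2.34 to 16.8) and 0 UMIs in 34 P21 cells. The limits that a count of 0 allows, 3 UMIs, were 4.05 CPM at P0 and 7.56 CPM at P21. Cluster 19, the cycling cell-like group with Ube2c and Top2a, had 12 Hopx UMIs in 421 cells, or 4.12 CPM (2.13 to 7.20). Clusters 14 and 6 were both immediate neuronal precursor-like and rich in Neurod1 and Neurog1, which drive neuronal commitment. They stood at 12.3 CPM (6.88 to 20.3) and 9.65 CPM (5.81 to 15.1). In age order cluster 14 had 2.70, 14.7, 24.6 and 0 CPM. Cluster 6 had 4.68, 11.6, 12.8 and 11.5 CPM, the last from 2 Hopx UMIs. None of these 4 groups exceeded 24.6 CPM in any library.

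Hopx was highest in cluster 7, the group led by Tex15. Its leading genes were Tex15, a marker of immediate neuronal precursors, Crabp1, Id4 and the corepressor Rcor1. It was named immediate neuronal precursor-like from Tex15 as its 1 leading marker, although the immature OSN marker set scored slightly higher (2.58 against 2.29), so its name rests on 1 leading gene. Other markers did not favour that name: Neurod1 was low there (9.82 CPM, against 983 and 1335 CPM in clusters 6 and 14), and Gap43, a growth cone protein of immature OSNs, was at 703 CPM. Hopx in cluster 7 was 22.8 CPM in P0 cells (14.1 to 34.8), 156 CPM in P3 cells (134 to 181), 222 CPM in P7 cells (192 to 255) and 34.6 CPM in P21 cells (14.9 to 68.1). The P7 level was 9.75 times that at P0 (6.2 to 16.1) and 1.42 times that at P3 (1.15 to 1.75). Hopx was chosen for this profile and each age is 1 library. These intervals, which cover counting error only, therefore do not test age. In this cluster 100 of 210 cells at P7 had a Hopx UMI.

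Every later cluster was lower than cluster 7 in the P3 and P7 libraries. Immature-OSN-like cluster 2, led by Gap43 and the stress-response genes Ddit3, Trib3 and Ppp1r15a, had 18.7, 108, 123 and 41.5 CPM at P0, P3, P7 and P21. Immature-OSN-like cluster 11, led by Gap43 and Rprm, had 11.8, 101, 126 and 31.9 CPM. The intervals of these 2 clusters overlapped at every age. Cluster 1, which carried both OSN marker sets and was kept in no class, had 21.8, 68.1, 82.5 and 26.1 CPM.

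Among mature-OSN-like cells, cluster 0, led by Omp (olfactory marker protein) and Cartpt, had 15.3, 41.6, 44.0 and 5.71 CPM. Cluster 12, led by S100a5 and with Kirrel2 among its 10 leading genes, had 18.9, 94.0, 122 and 12.9 CPM. At P7 the intervals of cluster 12 (90.6 to 160) and cluster 0 (31.7 to 59.5) did not overlap. S100a5, a calcium-binding protein, and Kirrel2, an adhesion molecule of OSN axons, are known to rise with neuronal activity in mouse OSNs. Cluster 15 was shallow, with a median of 1856 UMIs per cell, and had 14, 67.2, 60.1 and 0 CPM. Cluster 12 was named by its marker score with no marker among its leading genes.

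**Figure D1:**
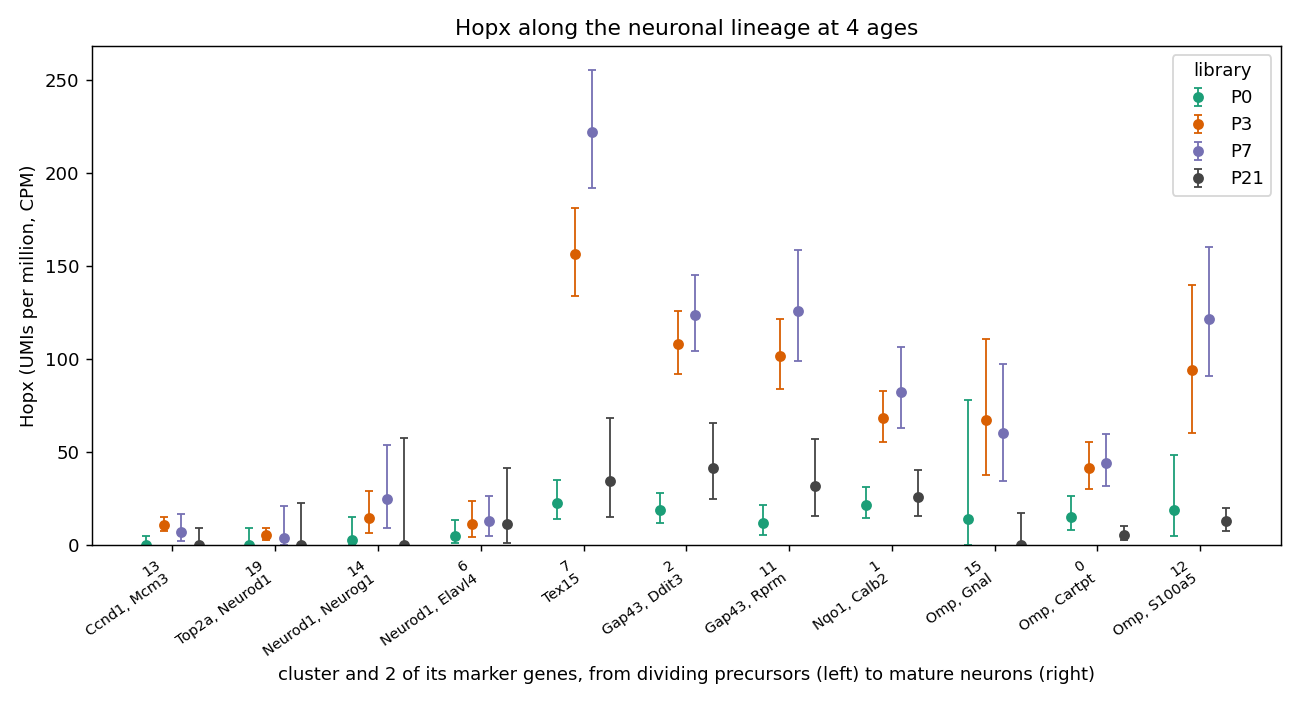
Hopx level in CPM (vertical axis, linear) in each of the 11 neuronal-lineage clusters, placed from dividing cells to mature OSNs in an order set after the values were seen, with 1 point per library at P0, P3, P7 and P21 and exact 95% Poisson intervals as bars. The P3 and P7 points stand above the P0 and P21 points from cluster 7 on, and cluster 7 is highest at P7 with 222 CPM.

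By class, the precursor-like cells (clusters 6, 7 and 14) had 12.9, 83.7, 125 and 21.3 CPM at P0, P3, P7 and P21. The immature-OSN-like class (clusters 2 and 11) had 15.9, 105, 124 and 37.3 CPM, and the mature-OSN-like class (clusters 0, 12 and 15) had 15.9, 53.8, 66.5 and 8.54 CPM. The P21 level over the P0 level was 2.35 in immature-OSN-like cells (95% interval 1.37 to 3.98), 0.536 in mature-OSN-like cells (0.289 to 1.02) and 1.65 in precursor-like cells (0.707 to 3.55). The intervals of these ratios cover counting error only and do not test age. The precursor-like level moved with the clustering, for a cause that was not tested: with called doublets kept it was 42.5 CPM at P3 and 95.2 CPM at P7, and where a marker gate took the place of clusters it was 18.3 and 59.1 CPM.

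Hopx was not the only gene with this age profile. Genes at least 2-fold higher, in CPM + 10, in both the P3 and the P7 library than in both P0 and P21 were 5 of 6686 (0.0748%) in precursor-like, 12 of 7020 (0.171%) in immature-OSN-like and 16 of 7036 (0.227%) in mature-OSN-like cells. Hopx ranked 3, 8 and 10 in these lists. The rule that chose Hopx used this contrast, so its place is a description. Mitochondrial, ribosomal protein, haemoglobin and Y-linked genes and Xist were counted and ranked here but are not named. The highest-ranked gene of each class was from that group. Gm44791, a predicted gene, passed in all 3 classes, with 4.42, 48.0, 50.6 and 0 CPM in mature-OSN-like cells. Meg3, an imprinted long noncoding RNA, passed in immature-OSN-like cells with 36.1, 101, 98.0 and 1.29 CPM. Pcsk2, a prohormone convertase, passed in mature-OSN-like cells with 14.1, 86.5, 54.3 and 11.9 CPM. The immature-OSN-like and mature-OSN-like lists consisted mostly of single odorant receptor genes.

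Outside the neuronal lineage, Hopx was near 0 in the epithelial stem and support cells. Horizontal basal cell-like cells, with Krt5 and Krt14, held 2 Hopx UMIs in 551 cells, or 1.10 CPM (0.133 to 3.98). Sustentacular-like cells were at 5.22 CPM (2 UMIs in 117 cells), olfactory ensheathing glia-like cells at 2.05 CPM (1 UMI in 145 cells) and fibroblast or stromal-like cells at 2.88 CPM (9 UMIs in 847 cells).

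Mural-like and myeloid-like cells stood apart. The 123 mural-like cells, the smooth muscle and pericyte group with Acta2 at 13001 CPM and Myh11 at 813 CPM, had 57.0 CPM of Hopx (36.9 to 84.1). They had 39.9 CPM at P0, 67.8 at P3 and 42.0 at P7, and none in 8 cells at P21. Transcripts of neurons were also found in them, with Gap43 at 128 CPM and Omp at 191 CPM. For each 1000 Gap43 UMIs they held 446 Hopx UMIs, against 36.8 in the neuronal lineage as a whole. That ratio was 166 in precursor-like, 19.6 in immature-OSN-like and 226 in mature-OSN-like cells. For each 1000 Omp UMIs they held 298, against 1369 in precursor-like, 316 in immature-OSN-like and 5.58 in mature-OSN-like cells. The order against precursor-like and immature-OSN-like cells thus depended on the neuronal gene chosen. Against mature-OSN-like cells it did not. Myeloid-like cells had 41.5 CPM (23.7 to 67.4), from 16 UMIs in 9 of 150 cells, of which 11 UMIs were in 4 cells at P7. They too held Gap43 (119 CPM) and Omp (192 CPM), and the part of free RNA or of cell pairs in these counts was not tested. The remaining 2044 non-neuronal cells were at 3.12 CPM (1.98 to 4.68), with 0, 3.20, 5.38 and 2.84 CPM at P0, P3, P7 and P21.

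**Figure D2:**
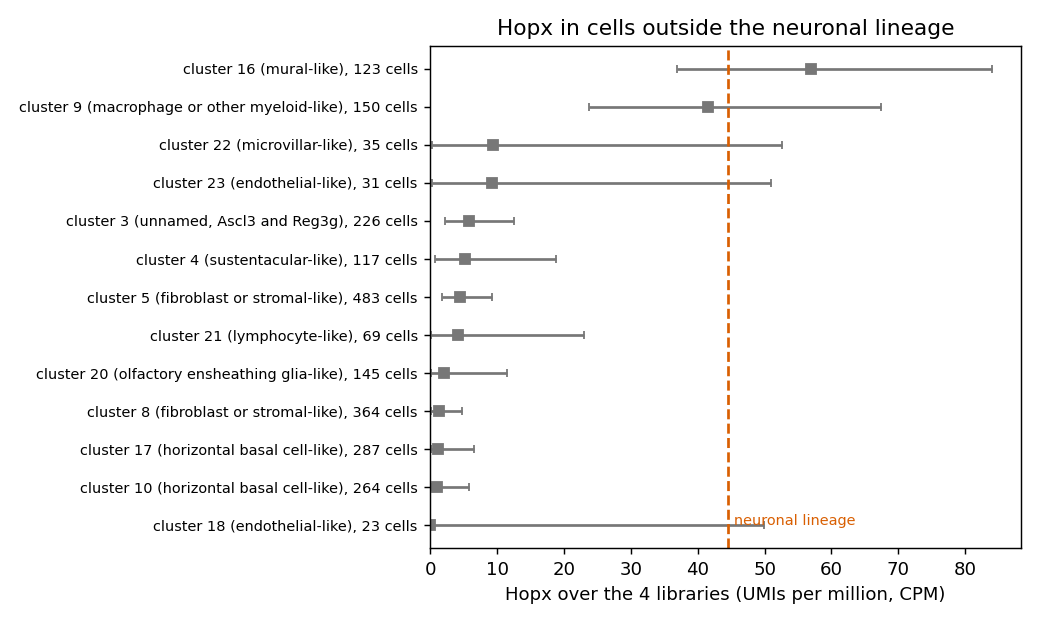
Hopx level in CPM (horizontal axis) with exact 95% Poisson intervals as bars in each cluster outside the neuronal lineage, all 4 libraries summed, with a dashed line at the level of the neuronal lineage (44.5 CPM). The mural-like cluster at 57.0 CPM and the myeloid-like cluster at 41.5 CPM lie beside that line, and every other cluster lies below 10 CPM.

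To compare shares of cells at 1 depth, each cell was thinned at random to 1500 UMIs and the 560 shallower cells were left out. Among precursor-like, immature-OSN-like and mature-OSN-like cells together, a Hopx UMI was found in 1.80% of P0 cells (exact Clopper-Pearson 95% interval 1.18 to 2.62%), 11.1% of P3 cells (9.45 to 13%), 12.4% of P7 cells (10.4 to 14.7%) and 1.15% of P21 cells (0.573 to 2.04%). Without thinning the shares were 4.65%, 27.1%, 30.6% and 5.93%. Cells that should lack the gene gave the background: 1 of 788 stromal-like cells, or 0.127%, and 0 of 125 glia-like cells, which allows up to 2.4%. In cluster 7 the thinned shares were 3.12%, 20.4%, 23.3% and 4.76%. In clusters 14 and 6 they were 2.30% and 1.15% over all ages, and in cycling cell-like cells 0 of 400, which allows up to 0.75%.

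Gates on single marker genes need no clusters. Among thinned cells with a UMI of Neurod1, 12 of 948 had Hopx (1.27%). Among cells with Tex15, 57 of 617 had Hopx (9.24%), with 2.35%, 12.4%, 18.4% and 5.26% of those cells in age order. Cells with at least 2 Gap43 UMIs were positive in 181 of 2152 cases (8.41%), and those with at least 2 Omp UMIs in 89 of 2289 (3.89%). Of cells with Krt5, a keratin of horizontal basal cells, 0 of 353 were positive, which allows up to 0.850%. Cells with Neurog1 were positive in 10 of 820 cases and those with the proliferation marker Mki67 in 7 of 315. Cells with Cyp2g1, a sustentacular enzyme, were positive in 3 of 259, and those with Col1a1, a collagen of stroma, in 17 of 954.

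Turned round, 364 thinned cells carried Hopx. Of these, 49.7% also passed the Gap43 gate, 24.5% the Omp gate, 15.7% had Tex15 and 3.30% had Neurod1. Of the 8127 Hopx-negative cells, 24.3% passed the Gap43 gate, 27.1% the Omp gate, 6.89% had Tex15 and 11.5% had Neurod1. These shares pool ages, with 37, 173, 139 and 15 Hopx+ cells at P0, P3, P7 and P21. By library the Omp gate held 21.6%, 23.7%, 24.5% and 40% of Hopx+ cells, against 21.2%, 15.01%, 25.9% and 66.8% of Hopx− cells. Its direction thus differed between libraries. Neurod1 was rarer in Hopx+ cells except at P21 (13.3% against 4.08%). Gap43 and Tex15 shares were higher in Hopx+ cells in each library.

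The genes whose levels were most like Hopx over 42 class-by-library sums of at least 30 cells were ranked by Pearson's r of log2(CPM + 10) among 8851 genes. The sums share libraries, so r is a description. The 10 genes were Gm38165 (r = 0.815), Pcsk2 (0.809), 1500004A13Rik (0.805), 1600023N17Rik (0.804), Hist2h3c2 (0.780), Gm16579 (0.774), Hist2h4 (0.774), Hs3st5 (0.773), Kif5a (0.772) and Klf7 (0.772). They include a heparan sulphate sulphotransferase (Hs3st5), a neuronal kinesin (Kif5a) and Klf7, a zinc finger factor needed for OSN axon growth in mice. Of these 10, between 4 and 6 stayed among the first 10 under each other measure or added constant tried.

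Next, Hopx-positive (Hopx+) and Hopx-negative (Hopx−) cells of 1 class were compared inside each library. UMIs of thinned cells were summed per library and Hopx status, and the 4 libraries served as paired replicates in edgeR's quasi-likelihood test with Benjamini-Hochberg adjustment over all genes tested. These pairs measure spread between libraries of different ages, not between animals of 1 age.

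Precursor-like Hopx+ cells had lower levels of Neurog1, Neurod1 and Mdk and higher levels of Nrp1, Hdac2 and Gap43 than Hopx− cells. There were 12, 55, 47 and 4 Hopx+ cells at P0, P3, P7 and P21, against 622, 433, 287 and 77 Hopx− cells. Of 1813 genes tested, 90 were higher (4.96%) and 82 lower (4.52%) in Hopx+ cells. Their makeup differed: 106 of 118 Hopx+ cells (89.8%) were in cluster 7, against 691 of 1419 Hopx− cells (48.7%). With sums per library and cluster only 1 gene, lower in Hopx+ cells, passed among 1064 tested. With DESeq2 30 genes passed, without the P3 library 41 and without the P7 library 47.

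Neurog1 fell by 2.84 ± 0.42 (log2 fold change ± SE, adjusted p = 2e-09, a call lost without P3 and under DESeq2) and Neurod1 by 2.29 ± 0.28 (adjusted p = 4.5e-14). Neurod1 stood at 111, 133, 71.0 and 1001 CPM in Hopx+ cells at P0, P3, P7 and P21, against 325, 807, 660 and 606 CPM in Hopx− cells. Hopx+ cells were lower in the first 3 libraries, and the P21 value came from 4 cells, in which 1 UMI is worth 167 CPM. Of 16 neuronal basic helix-loop-helix and zinc finger factors 8 were tested and 4 fell (Neurog1, Neurod1, Nhlh1 and Nhlh2), with a median log2 fold change of −0.58 against −0.02 for all genes. Of 17 receptor choice genes 7 were tested, with 2 higher, 1 lower and a median of 0.47. The higher ones were the transcription factors Ebf1 (0.50 ± 0.12, higher in 3 of 4 libraries) and Atf5 (0.58 ± 0.15, higher in 4 of 4), and both calls were lost without P3, without P7 and under DESeq2, and that of Ebf1 also without P0. Lhx2, a homeodomain factor needed for receptor choice in mice, fell by 0.79 ± 0.13 in 4 of 4 libraries. None of these 3 was called in the matched comparison described below. Mdk, the growth factor midkine, fell by 3.34 ± 0.41 and Mfng, a Notch-modifying glycosyltransferase, by 2.79 ± 0.39.

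Higher genes included Nrp1, the semaphorin 3A receptor that sorts OSN axons, by 1.90 ± 0.36 (adjusted p = 1.2e-05). Nrp1 had 111, 133, 185 and 167 CPM in Hopx+ cells, against 56.8, 30.8, 44.1 and 51.9 CPM in Hopx− cells. All 4 libraries had the higher value in Hopx+ cells. Camk2d, a calcium-calmodulin kinase, rose by 1.49 ± 0.27 and Hist2h3c2, a histone gene, by 1.68 ± 0.36. Neither was called in the matched comparison described below. Gap43 rose by 1.12 ± 0.19 and Gng13, a G protein subunit of odour transduction, by 1.0 ± 0.21, and both calls were lost without P3 and under DESeq2. Hdac2, the deacetylase that HOPX recruits in heart, rose by 1.04 ± 0.12 (adjusted p = 4.9e-16), with 2446, 2632, 3152 and 2335 CPM in Hopx+ cells, against 1334, 1213, 1417 and 1706 CPM in Hopx− cells. It was highest in cluster 7 over all ages (2227 CPM), where most Hopx+ cells lay. Tex15 rose by 0.55 ± 0.18 (adjusted p = 0.032), a call lost without P0, P3 or P7 and under DESeq2.

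A second comparison, added after these values were seen, held the cluster fixed and matched depth in part. Hopx+ cells at full depth, the deepest first, were each set against the 3 Hopx− cells of the same library and cluster with the nearest UMI totals, until fewer than 3 of these were left. The shallower Hopx+ cells were thus dropped where Hopx− cells ran out. In precursor-like cells it used 24 of 24, 63 of 110, 45 of 109 and 9 of 9 Hopx+ cells at P0, P3, P7 and P21. Depth still differed, and its part in the results was not tested. Median depth was 5171 UMIs in Hopx+ cells and 4488 in Hopx− cells at P3, and 5223 and 4499 at P7. Of 3816 genes 13 were higher (0.341%) and 27 lower (0.708%) in Hopx+ cells. Of the 172 thinned calls, 24 (14%) were called here in the same direction, which is 60% of these 40.

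Lmo4, a LIM-only transcription cofactor, had the lowest adjusted p. In this comparison it stood at 155, 146, 154 and 108 CPM in Hopx+ cells, against 399, 812, 721 and 230 CPM in Hopx− cells. No Hopx+ value reached the lowest Hopx− value, and the log2 fold change was −2.20 ± 0.15 (adjusted p = 8e-16). In the thinned comparison it fell by 1.22 ± 0.30, but Hopx+ cells were higher at P0 (278 CPM, against 215 CPM in Hopx− cells), and that call was lost without P3, without P7, under DESeq2 and without the library block. Tppp3, a tubulin polymerization-promoting protein, had 0, 43.2, 23.7 and 0 CPM in Hopx+ cells, against 56.4, 162, 97.2 and 55.9 CPM in Hopx− cells, a change of −2.06 ± 0.29 (adjusted p = 5.3e-06). Mier1, a corepressor subunit that binds histone deacetylases, fell by 1.12 ± 0.19 (adjusted p = 0.00019). Neurog1 had 64.6, 91.9, 86.8 and 126 CPM in Hopx+ cells, against 126, 224, 177 and 149 CPM in Hopx− cells, and fell by 1.08 ± 0.18. The list of neuronal basic helix-loop-helix and zinc finger factors gave 2 calls of 9 tested, Neurog1 and Neurod1 (−0.59 ± 0.14), both lower, with a median of −0.25 against 0.01 for all genes. Mfng (−1.13 ± 0.19) and Gadd45a, a growth arrest gene (−0.76 ± 0.15), were lower too.

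Among higher genes, Gap43 had 865, 995, 643 and 470 CPM in Hopx+ cells, against 686, 420, 431 and 311 CPM in Hopx− cells. It rose by 0.81 ± 0.11 (adjusted p = 5.3e-06) and was higher in 4 of 4 libraries. Rprm, the cell cycle arrest gene reprimo, rose by 0.65 ± 0.11, Nrp1 by 0.96 ± 0.23 and Crmp1, a mediator of semaphorin signals, by 0.68 ± 0.15. Sertad2, a transcription cofactor, rose by 0.52 ± 0.11. Hdac2 rose by 0.44 ± 0.07 (adjusted p = 0.00018), with 2196, 2170, 2009 and 1968 CPM in Hopx+ cells, against 1676, 1424, 1472 and 1832 CPM in Hopx− cells. Tex15 did not pass (0.11 ± 0.10, adjusted p = 0.87).

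Of 26 named genes called here, 5 kept their call without each library in turn: Rprm, Lmo4, Tppp3, Mier1 and Hacd2, a fatty acid elongation enzyme that was tested in only 2 of those 4 fits. Without P3 10 genes were called in all, without P7 24 and without P21 67. The call was lost without P3 for Gap43, Hdac2, Sertad2, Neurog1 and Mfng, without P7 for Neurod1 and Gadd45a, and without either P3 or P7 for Nrp1 and Crmp1. Rprm among thinned immature-OSN-like cells, Acsm4 in their matched comparison, Tppp3 and Kirrel2 in mature-OSN-like cells, and Hdac1 and Hdac3 were singled out below after their values were seen.

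**Figure D3:**
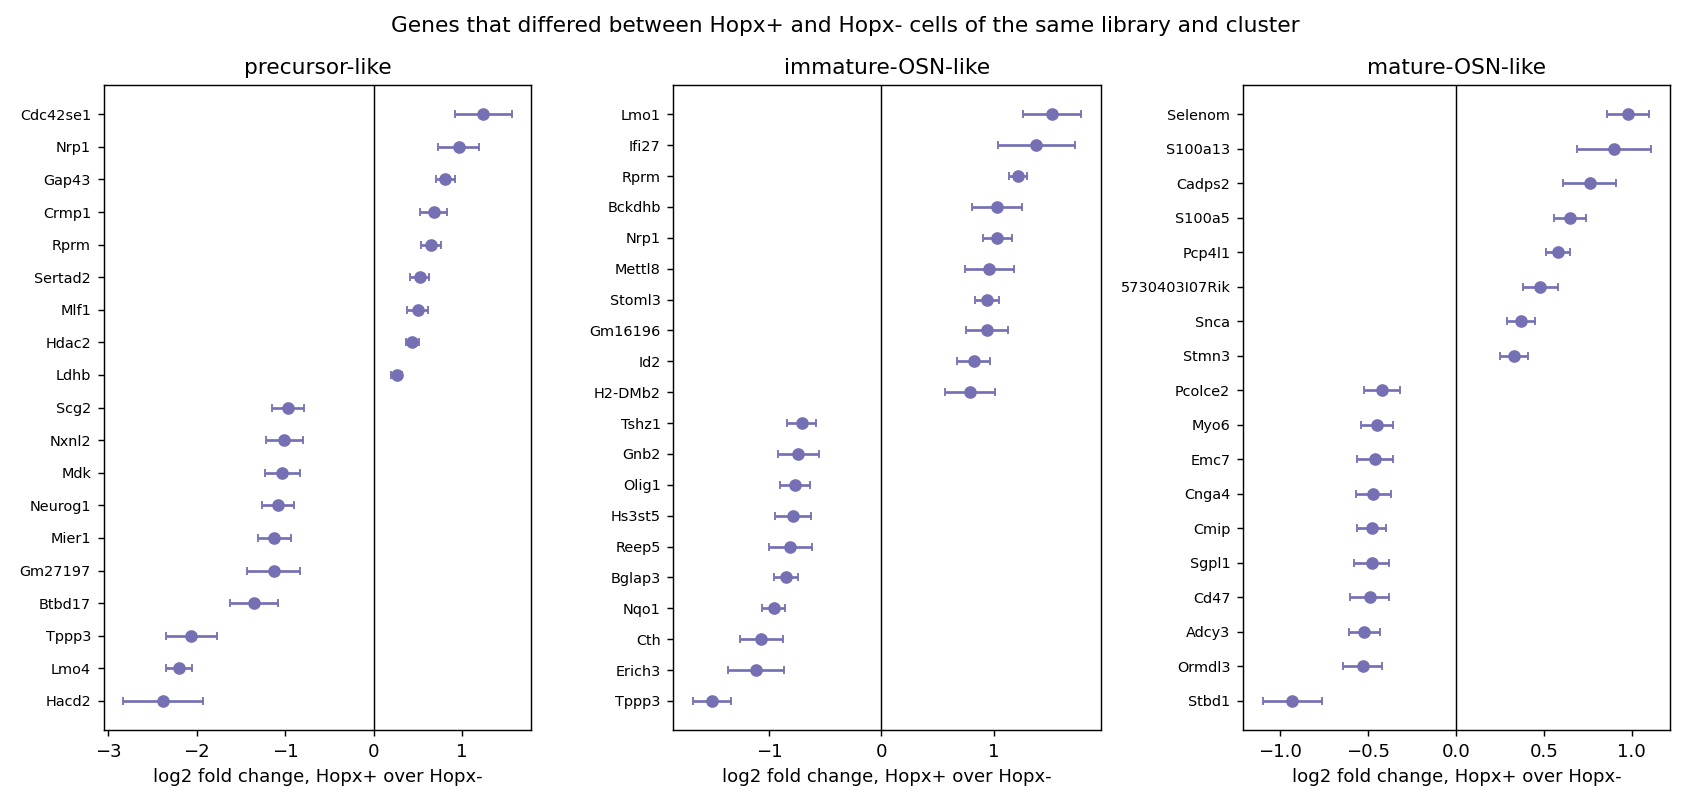
Log2 fold change of Hopx+ over Hopx− cells (horizontal axis, bars are standard errors) for up to 10 genes in each direction that passed in the matched comparison with the same sign in 4 of 4 libraries, in 1 panel per class. Rprm and Nrp1 lie to the right in the precursor-like and immature-OSN-like panels, and Tppp3 lies to the left in both.

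In immature-OSN-like cells 5 genes passed after thinning. Thinned Hopx+ cells numbered 12, 64, 51 and 4 at P0, P3, P7 and P21, against 554, 392, 266 and 116 Hopx− cells, and both states had nearly the same split over clusters 2 and 11 (64.9% and 64.2% in cluster 2). Of 2544 genes 2 were higher (0.0786%) and 3 lower (0.118%) in Hopx+ cells. Rprm rose by 0.83 ± 0.15 and Nrp1 by 1.09 ± 0.27 (adjusted p = 0.033). The lower genes were Acsm4 (−1.93 ± 0.41), Bglap3 (−1.63 ± 0.24) and Nqo1 (−1.30 ± 0.28). All 5 were lost with DESeq2 (0 calls, 42 genes at unadjusted p under 0.05) and without the P3 library (0 calls, 92 genes). Nrp1 also lost its call without each of the other libraries, Rprm without P7, and Acsm4 and Nqo1 without P21.

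The matched comparison at full depth, with 31 of 31, 94 of 171, 68 of 131 and 23 of 23 Hopx+ cells, called 40 of 5994 genes higher (0.667%) and 46 lower (0.767%), and it held all 5 of the thinned calls in the same direction. Median depth was 6883 UMIs in Hopx+ cells and 5983 in Hopx− cells at P3, and 7015 and 5407 at P7. Rprm stood at 1456, 1203, 1198 and 1238 CPM in Hopx+ cells, against 749, 436, 436 and 831 CPM in Hopx− cells. The lowest Hopx+ value was above the highest Hopx− value, and Rprm rose by 1.22 ± 0.08 (adjusted p = 1.4e-18). Nrp1 had 238, 207, 196 and 195 CPM in Hopx+ cells, against 147, 86.6, 117 and 80.2 CPM in Hopx− cells, and rose by 1.03 ± 0.13 (adjusted p = 2.5e-08). Stoml3, a protein of OSN cilia, rose by 0.94 ± 0.11 and Gng13 by 0.47 ± 0.06. Lmo1, a relative of Lmo4, rose by 1.52 ± 0.26, and Id2, an inhibitor of basic helix-loop-helix factors, by 0.82 ± 0.15. Hdac2 rose by 0.26 ± 0.07 (adjusted p = 0.044), a call lost without P3, P7 or P21.

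Lower genes in this class included Nqo1 and Acsm4, both known marks of dorsal-zone OSNs in mice. Nqo1, a quinone oxidoreductase, had 156, 236, 160 and 176 CPM in Hopx+ cells, against 388, 424, 305 and 432 CPM in Hopx− cells. It fell by 0.96 ± 0.10 (adjusted p = 1.8e-10), with no overlap between the states. Acsm4, an acyl-CoA synthetase, fell by 0.97 ± 0.15, lower in 3 of 4 libraries. Robo2, a Slit receptor that guides dorsal axons, fell by 0.63 ± 0.17 (adjusted p = 0.041), also in 3 of 4. Tppp3 fell by 1.51 ± 0.17, with 45.8, 46.9, 104 and 111 CPM in Hopx+ cells, against 122, 265, 194 and 131 CPM in Hopx− cells. Ddit3, a factor of the unfolded protein response, fell by 0.63 ± 0.10. Olig1 and Olig2, basic helix-loop-helix factors, fell by 0.77 ± 0.13 and 0.51 ± 0.13. Gap43 was not called (−0.06 ± 0.05, adjusted p = 0.81). Of the 32 named calls, Rprm, Nrp1, Stoml3, Gng13, Nqo1 and Tshz1 kept theirs without each library in turn. The calls of Tppp3, Acsm4, Id2 and Ddit3 were lost without P3, those of Lmo1 and Olig1 without P7, and those of Robo2 and Olig2 without either. In all, 16 genes were called without P3 and 48 without P7.

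Mature-OSN-like cells were compared only in matched form, since thinning left 2, 20, 24 and 3 Hopx+ cells at P0, P3, P7 and P21 and at least 3 libraries with 20 had been required. The matched sums held 17 of 17, 56 of 61, 58 of 82 and 29 of 29 Hopx+ cells. Matching on depth was incomplete: median depth was 8587 UMIs in Hopx+ cells and 5594 in Hopx− cells at P3, and 7063 and 4458 at P7. Of 5296 genes 10 were higher (0.189%) and 16 lower (0.302%). Without the library block 0 were called (136 genes at unadjusted p under 0.05), and with DESeq2 5.

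S100a5 stood at 28816, 16437, 15230 and 35176 CPM in Hopx+ cells, against 11774, 12427, 10270 and 26260 CPM in Hopx− cells, and rose by 0.65 ± 0.09 (adjusted p = 1.4e-05). Hopx+ cells were higher in each library, though the sums of different libraries overlapped. Pcp4l1, a small calmodulin-pathway protein that also led cluster 12, rose by 0.58 ± 0.07 and Selenom, a selenoprotein, by 0.98 ± 0.12. Kirrel2 was not called (0.29 ± 0.11, adjusted p = 0.39). Adcy3 and Cnga4, the cyclase and a channel subunit of odour transduction, fell by 0.52 ± 0.09 and 0.47 ± 0.10, the 2 calls among 15 transduction genes tested, whose median was −0.13. Tppp3 fell by 1.39 ± 0.20, lower in 3 of 4 libraries. S100a5, Pcp4l1, Selenom, Cmip and Tppp3 kept their calls without each library, Adcy3 lost its call without P7 and Cnga4 without P7 or P21, and both under DESeq2, as was the call of Tppp3. Without P0 59 genes were called and without P7 14.

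**Figure D4:**
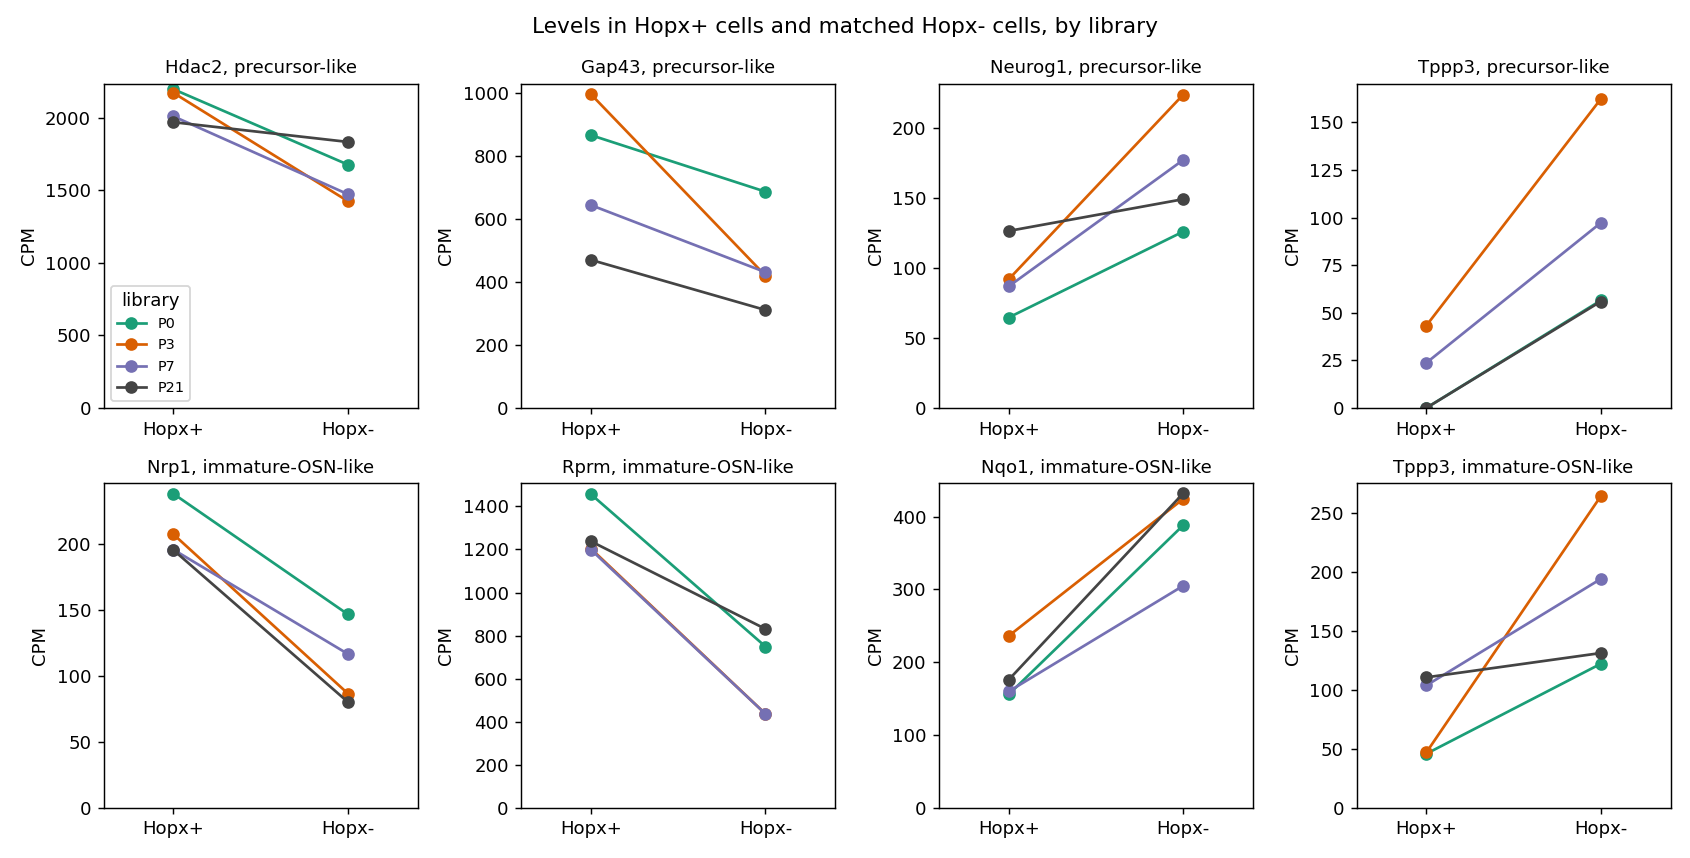
Levels in CPM (vertical axes, from 0) of single genes in the matched Hopx+ sum and Hopx− sum of each library, joined by a line per library. Upper panels are precursor-like and lower panels immature-OSN-like cells. Rprm in immature-OSN-like cells lies at 1198 to 1456 CPM in Hopx+ sums and at 436 to 831 CPM in Hopx− sums.

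Lists drawn up around HOPX's known roles gave few calls. Among its 16 known partners, mostly studied in heart and muscle, Hdac2 was the 1 call of 4 tested in matched precursor-like cells (list median 0.27, all genes 0.01) and of 7 tested in immature-OSN-like cells (median −0.08, all genes 0). Hdac1 and Hdac3 were not called in any matched comparison, with log2 fold changes of −0.64 ± 0.27 and 0.10 ± 0.20 in precursor-like cells. Of 16 serum response factor targets 3 were tested in each matched comparison. Actb, the cytoplasmic actin, rose by 0.23 ± 0.06 in immature-OSN-like cells (adjusted p = 0.049), a call lost without P0, P3 or P21, and fell by 0.56 ± 0.12 in the thinned precursor-like comparison. Of 10 reserve stem cell markers 0 were tested in precursor-like, 1 in immature-OSN-like and 2 in mature-OSN-like cells, with no call. The Wnt list had 1 member tested in each matched comparison and no call.

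The calls of the other lists stand beside a background of 0.341% of genes higher and 0.708% lower in matched precursor-like cells, and of 0.667% higher and 0.767% lower in matched immature-OSN-like cells. Growth cone genes were all 20 tested in matched precursor-like cells, where Gap43 and Crmp1 rose and the median was 0.13, and in immature-OSN-like cells, where none was called and the median was 0.11. In the thinned precursor-like comparison 18 were tested, with Gap43, Dpysl3 and Ncam1 higher and Dbn1, an actin-binding protein, lower (−1.03 ± 0.25, lower in 3 of 4 libraries), beside 4.96% of genes higher and 4.52% lower. The calls of Dpysl3, Ncam1 and Dbn1 were lost without P3, without P7 and under DESeq2, and that of Dpysl3 also without P0. Of 26 axon guidance genes 6 were tested in precursor-like cells, with Nrp1 called, and 9 in immature-OSN-like cells, with Nrp1 higher and Robo2 lower. In the cell cycle exit list, with 7 members tested in precursor-like and 10 in immature-OSN-like cells, Cdkn1a, the p21 inhibitor, rose by 0.84 ± 0.18 in precursor-like cells, higher in 3 of 4 libraries, and fell by 0.30 ± 0.08 in immature-OSN-like cells. Both Cdkn1a calls were lost when P3 was left out. In the list of BMP readout genes Id2 and Id3 rose in immature-OSN-like cells, among 4 tested, and both calls were lost without P3. The dissociation stress list had no call among 4 or 5 members tested in each matched class, and in the thinned precursor-like comparison Jun rose by 0.68 ± 0.13, a call lost without P3 or P7. Cell cycle genes of S phase and G2/M were tested in 0 to 3 cases and none was called.

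Odorant receptor transcripts were counted as a sign of maturation that the choice of Hopx did not use. Among thinned precursor-like cells, 41.7%, 65.5%, 63.8% and 25% of Hopx+ cells had a receptor UMI at P0, P3, P7 and P21, against 37.0%, 31.9%, 36.2% and 36.4% of Hopx− cells. The mean difference was 13.6 percentage points (SD 20.8, n = 4 libraries), higher in 3 of 4. Its exact two-sided permutation p was 0.375 (0.75 adjusted over the 2 classes). The difference was 6.97 points without P3, 8.97 without P7 and 22.0 without P21, where 4 cells were Hopx+. With at least 2 receptor UMIs the difference was 15 points (SD 7.22), higher in 4 of 4, with an exact p of 0.13 (0.25 adjusted), the smallest that 4 pairs allow. This comparison did not hold the cluster fixed. Of Hopx+ precursor-like cells 89.8% lay in cluster 7, against 48.7% of Hopx− cells, so Hopx and cluster cannot be told apart here. In immature-OSN-like cells the difference with at least 1 receptor UMI was −0.640 points (SD 10.0, exact p = 0.875).

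Because Nqo1 was lower in Hopx+ immature-OSN-like cells, Hopx was also compared between Nqo1+ and Nqo1− neurons, a comparison added after those values were seen. In immature-OSN-like cells it reads the same counts from the other side, so its direction there is no separate result. In immature-OSN-like cells Hopx was 13.9, 71.4, 97.4 and 44.2 CPM in Nqo1+ cells at P0, P3, P7 and P21, against 16.1, 116, 130 and 36.1 CPM in Nqo1− cells. In mature-OSN-like cells it was 18.9, 55.2, 56.3 and 8.27 CPM in Nqo1+ cells, against 9.95, 52.9, 76.7 and 8.55 CPM in Nqo1− cells. With 4 pairs the smallest exact two-sided p is 0.13, so none of the 9 such comparisons could pass. That value was reached in cluster 2, where the mean log2 ratio was −0.391 (SD 0.345), lower in 4 of 4 libraries (0.9 after adjustment). The age profile was thus present in both Nqo1 states: P3 and P7 exceeded P0 and P21 in each. In Nqo1+ immature-OSN-like cells the P21 value came from 6 Hopx UMIs in 20 cells. Its interval (16.2 to 96.2 CPM) overlapped those of P3 (52.5 to 94.9) and P7 (66.2 to 138).

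Around the gene, Hopxos, an antisense transcript from 77094532 to 77102303 on the plus strand, overlaps Hopx. It had 1, 24, 21 and 1 UMIs in age order, of which 0, 14, 15 and 1 were in Hopx+ cells. The strand setting of the counting is unknown here, so Hopxos counts may include Hopx reads and the reverse. The nearest protein-coding genes had few UMIs in the neuronal classes, so whether they followed Hopx there cannot be told. Thegl, 25459 bases away, had 1.98, 1.61, 2.45 and 1.46 CPM over all cells, from 10 to 28 UMIs per library. Arl9 and Spink2 had at most 4 UMIs in any library. Rest, which encodes the repressor of neuronal genes, lies 150370 bases away and had 17.1, 23.6, 25.1 and 8.19 CPM over all cells. It was thus higher at P3 and P7 than at P0 and P21, as Hopx was, but had at most 1.29 CPM in any of the 3 neuronal classes.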

How the data were processed

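The 4 libraries of single cells from mouse olfactory epithelium were made on a droplet platform that counts 3′ ends. The authors deposited raw UMI counts for each gene in each cell, without normalization. Per the submitters' processing notes, Cell Ranger 2.1.1, Seurat and mm10 were used, with no role given, and no source used here states the annotation or any earlier cell filter. Hopx and the gene lists were chosen with earlier results of these data known.

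Cells with at least 500 genes, at most 10% mitochondrial and at most 10% haemoglobin UMIs were kept, and 59 cells called doublets by Scrublet were removed. Cells were clustered in scanpy 1.11.5 (2000 variable genes, 30 components, 15 neighbours, Leiden resolution 1). A cluster was named "X-like" for the marker set with the most members among its 10 leading genes or, where none led so, for the set with the highest score, with at least 3 of its markers detected. Clusters 1, 3 and 13 stayed unnamed, and no cluster was named globose basal cell-like. Library sizes and depths are given with the results. A library stands for 1 age, so ages were not tested. Intervals are exact at 95% and cover counting error only.

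Hopx+ and Hopx− sums were tested with edgeR 4.0.16 in R 4.3.3, with the library as a block, since both sums of a pair come from the same library, and Benjamini-Hochberg adjustment at 0.05. A class needed at least 20 thinned Hopx+ cells in 3 libraries, which mature-OSN-like cells did not have, so their planned thinned test was not run. The matched comparison, the comparison by Nqo1 and the fits without shared barcodes were added after the data were seen. Named genes were the 10 with the largest rise and the 10 with the largest fall among those that passed with 1 sign in every library, the members of the lists that passed, and the gate markers. A few of these genes are not reported here. DESeq2 1.42.0, other depths, filters and clusterings were alternatives. The fits were tested on simulated data.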

Additional observations from a re-analysis of the deposited data

How the results depend on the processing

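Under every alternative clustering run, Hopx levels at P3 and P7 stayed above those at P0 and P21 in each class. This does not cover the marker gates, whose order of P3 and P21 in precursor-like cells is not reported here. The size of the precursor-like levels moved. At P3 the level was 47.9 CPM with no limits on cells, 42.5 with called doublets kept and 39.5 with the highest doublet scores removed. It was 56.8 at resolution 2 and 18.3 with marker gates. At P7 these gave 102.6, 95.2, 90.8, 107 and 59.1 CPM, and the gates gave 6.32 CPM at P0. In immature-OSN-like cells the P3 level was 119 CPM with no limits, 128 with doublets kept and 121 at resolution 2, and the P21 level was 24.2 with gates. In mature-OSN-like cells the gates gave 68.8 CPM at P3 and 13.3 at P21. The cause was not tested. Shares of Hopx+ cells without thinning were 4.65, 27.1, 30.6 and 5.93%, at 1000 UMIs 8.02% at P3 and 9.31% at P7, and at 2500 UMIs 4.07, 16.7, 21.5 and 3.23%.

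Of the 10 genes most like Hopx, 6 stayed with 1 CPM added, 6 with 50 CPM, 4 by Spearman's rho and 5 over clusters. The 172 precursor-like calls became 30 with DESeq2, 90 with no filter (8 higher, 82 lower), 79 without the replicate block (38 higher, 41 lower), 1 with sums per library and cluster, 79 at 1000 UMIs, 456 at 2500 UMIs, 40 in matched cells and 41 to 232 without 1 library. The 5 immature-OSN-like calls became 0 with DESeq2 (42 genes at unadjusted p under 0.05), 21 with no filter, 0 without the replicate block (107 genes), 0 at 1000 UMIs (105 genes), 14 at 2500 UMIs, 86 in matched cells and 0 to 5 without 1 library. Leaving out 1 library gave 10 to 67 matched precursor-like and 16 to 112 matched immature-OSN-like calls. The 26 mature-OSN-like calls became 5 with DESeq2, 324 with no filter (111 higher, 213 lower), 0 without the replicate block (136 genes at unadjusted p under 0.05) and 14 to 59 without 1 library. Among single genes, Ebf1 turned to −0.03 with sums per library and cluster and −0.06 in matched cells, and Tex15 to −0.16 with sums per library and cluster. Without 1 library the precursor-like receptor difference ranged between 6.97 points (without P3) and 22.0 points (without P21), and the immature-OSN-like receptor difference ranged between −4.58 points (without P7) and 3.17 points (without P21), with 0.741 without P0. Likewise the Nqo1+ over Nqo1− log2 ratio of Hopx ranged between −0.119 and 0.187 in mature-OSN-like cells, between −0.0876 and 0.502 in cluster 15 and between −0.264 and 0.292 in cluster 11. Few Hopx+ cells and depth limit the P21 sums: 4 thinned Hopx+ cells in precursor-like and 4 in immature-OSN-like cells, in which 1 UMI is worth 167 CPM.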
